A study of Mus musculus with 6 samples.

Results

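The ARID genes encode nuclear proteins that share the AT-rich interaction domain, a DNA-binding fold. The 10 members described here are Arid1a, Arid1b, Arid2, Arid3a, Arid3b, Arid4a, Arid4b, Arid5a, Arid5b and Jarid2, chosen by gene symbol as the targeted gene and its paralogs. All 10 were found among the 25703 genes of the count table. They were measured by RNA sequencing of the growing end of the mouse incisor in 6 libraries, 3 from each of 2 genotypes. The control mice were Arid1a fl/fl, with both Arid1a alleles floxed and no recombinase. The mice called Arid1a cKO here were Gli1-CreER;Arid1a fl/fl. Both groups were C57BL/6 animals of 6 weeks, and the labels give the same tamoxifen course for both, 1.5 mg per 10 g body weight on each of 3 days at 1 month of age. CreER is a recombinase that tamoxifen activates. It is driven here by Gli1, so deletion is limited to cells that express Gli1 at injection and to their descendants, and all other cells of the tissue keep Arid1a.

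ARID proteins act inside larger chromatin complexes. Arid1a and Arid1b are alternative subunits of the SWI/SNF (BAF) nucleosome remodeller, and a given complex holds one or the other. Arid2 takes that place in the related PBAF form. Arid4a and Arid4b belong to the SIN3-HDAC co-repressor, Jarid2 recruits Polycomb repressive complex 2 (PRC2) to DNA, Arid5b works with the histone demethylase Phf2, and Arid3a and Arid3b are DNA-binding transcription factors. The mouse incisor renews itself throughout life from stem cells at its proximal end, some of which lie in a Gli1-expressing mesenchyme.

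Paralogs can share reads, so the closest coding stretches of one read length, 75 bases, were compared first. The pair the results turn on, Arid1a and Arid1b, differed at 11 of the 75 positions in its closest ungapped window. That window lies in the last coding exon of both genes, exon 20 of 20, at chr4:133680745-133680819 on the minus strand for Arid1a and at chr17:5342599-5342673 on the plus strand for Arid1b (mm10, GENCODE M21 transcripts). Capitals mark the positions that differ.
Arid1a: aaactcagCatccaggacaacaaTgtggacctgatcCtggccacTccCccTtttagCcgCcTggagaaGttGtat
Arid1b: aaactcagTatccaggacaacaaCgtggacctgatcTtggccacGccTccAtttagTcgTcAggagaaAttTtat
The Arid3a and Arid3b pair was the closest of all 45 pairs of members, with 8 differences in 75 bases, and is shown for that reason. Its window lies in exon 5 of 9 of both genes, at chr10:79948956-79949030 on the plus strand for Arid3a and at chr9:57798055-57798129 on the minus strand for Arid3b.
Arid3a: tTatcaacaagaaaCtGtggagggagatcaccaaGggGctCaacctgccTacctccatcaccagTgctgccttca
Arid3b: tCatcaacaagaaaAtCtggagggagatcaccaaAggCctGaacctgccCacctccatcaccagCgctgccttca
The Arid4a and Arid4b pair differed at 10 of 75 positions, and Arid5a and Arid5b at 18. The 41 pairs outside these subfamilies differed at 22 or more.

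No 75-base window of any member's annotated transcripts occurred in a transcript of another member. Reads of that length without errors can therefore be assigned to 1 member. Windows shared with genes outside the family were few. They made up 3.43% of the Arid3b windows (the antisense gene Gm17231), 1.04% of the Arid4b windows (the protein-coding gene Ggps1, which overlaps it on the opposite strand), 0.168% for Arid2 and 0.0259% for Arid1a. Whether counting used strand is not stated in the labels, so reads of Arid3b and Arid4b may not have been told apart from those of these neighbours in the shared part. Ggps1 held 9683 counts in all, and Gm17231 is not among the genes counted.

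Library totals ranged from 27300932 to 37908478 estimated counts. Among lists of cell type markers, genes of dentin and enamel were present in all libraries. Dspp, the main dentin matrix gene, lay between 1260 and 4521 CPM (read counts scaled to library size, with TMM, edgeR's correction for composition). Ambn, an enamel matrix gene, lay between 314 and 801 CPM. Amelx, another such gene, was far less even, from 34.8 CPM in Arid1a cKO replicate 2 to 1914 CPM in control replicate 3. Its groups overlapped, with a log2 fold change of -1.31 (SE 1.56, edgeR adjusted p = 0.689). The summed level of 15 dental epithelium markers overlapped between the groups, at 1632 to 5126 CPM in control and 1768 to 3568 CPM in Arid1a cKO, with 1 of the 15 called higher (Epcam). So did the sum of 10 dental mesenchyme markers, at 19469 to 39388 CPM in control and 26733 to 28882 CPM in Arid1a cKO, with Msx2 and Pdgfrb called lower. Most of that sum was Col1a1, at 10627 to 27872 CPM in control and 17683 to 19563 CPM in Arid1a cKO. The sum of 8 odontoblast markers overlapped as well (3445 to 8418 and 5790 to 6523 CPM, with Alpl and Nes called lower). Over all genes tested, edgeR called 1.5% higher and 2.46% lower. The sum of 6 Schwann cell markers did not overlap, at 32.8 to 92.4 CPM in control and 100.8 to 163 CPM in Arid1a cKO. Yet 0 of the 6 were called higher and 1, Cdh19, was called lower. Sums for endothelium, macrophage, neutrophil, lymphocyte, erythroid, skeletal muscle and osteoclast markers overlapped, some with 1 library apart. Arid1a cKO replicate 1 held 342 CPM of erythroid markers (40.2 to 136 in the others) and 17.9 CPM of neutrophil markers (0.264 to 0.920). Control replicate 2 held 25.9 CPM of skeletal muscle markers (2.06 to 8.18 in the others). A ribosomal RNA gene, CT010467.1, held 0.864% to 1.05% of the counts in control and 1.89% to 7.47% in Arid1a cKO. In a tissue of many cell types, fewer cells of one type and less RNA per cell cannot be told apart. Whether each library is a different animal is not in the labels, so the p-values cover no more than the library-to-library spread, part of which may be technical.

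Arid1a, the targeted gene, was the 1 member that passed the edgeR test. It fell to 60.6% of its control level in the whole tissue. The other 9 members did not pass, which does not show that their levels were equal, and the next in size of change was Arid5b, at 79.6% of control. In the edgeR quasi-likelihood test 1 of 10 members was called lower and 0 higher at an adjusted p under 0.05 (Benjamini-Hochberg over 19613 genes), against 2.46% of all genes called lower and 1.5% called higher. Among 11220 genes with a mean of at least 10 CPM, the range of the members, the shares were 3.59% and 1.67%. At an unadjusted p under 0.05 there were 2 members lower and 0 higher, while 22% of all genes and 26.4% of those at 10 CPM or more lay under it in either direction. DESeq2 called 2 lower, Arid1a and Arid5b, and 0 higher, against 5.54% of all genes called lower and 4.16% called higher. With limma-voom 1 was called lower and 0 higher, against 420 lower and 246 higher of all 19613 genes. The 2 groups of libraries did not overlap for Arid1a and Arid5b, against 29.1% of all genes tested and 33.8% of those at 10 CPM or more, so 2 of 10 is no more than the background. All 10 members passed the filter on low counts. Their median log2 fold change was -0.03, beside 0.0043 over all genes tested. That median and the count of calls include the targeted gene. For the 9 members other than Arid1a the median was 0.0155.

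**Figure D1:**
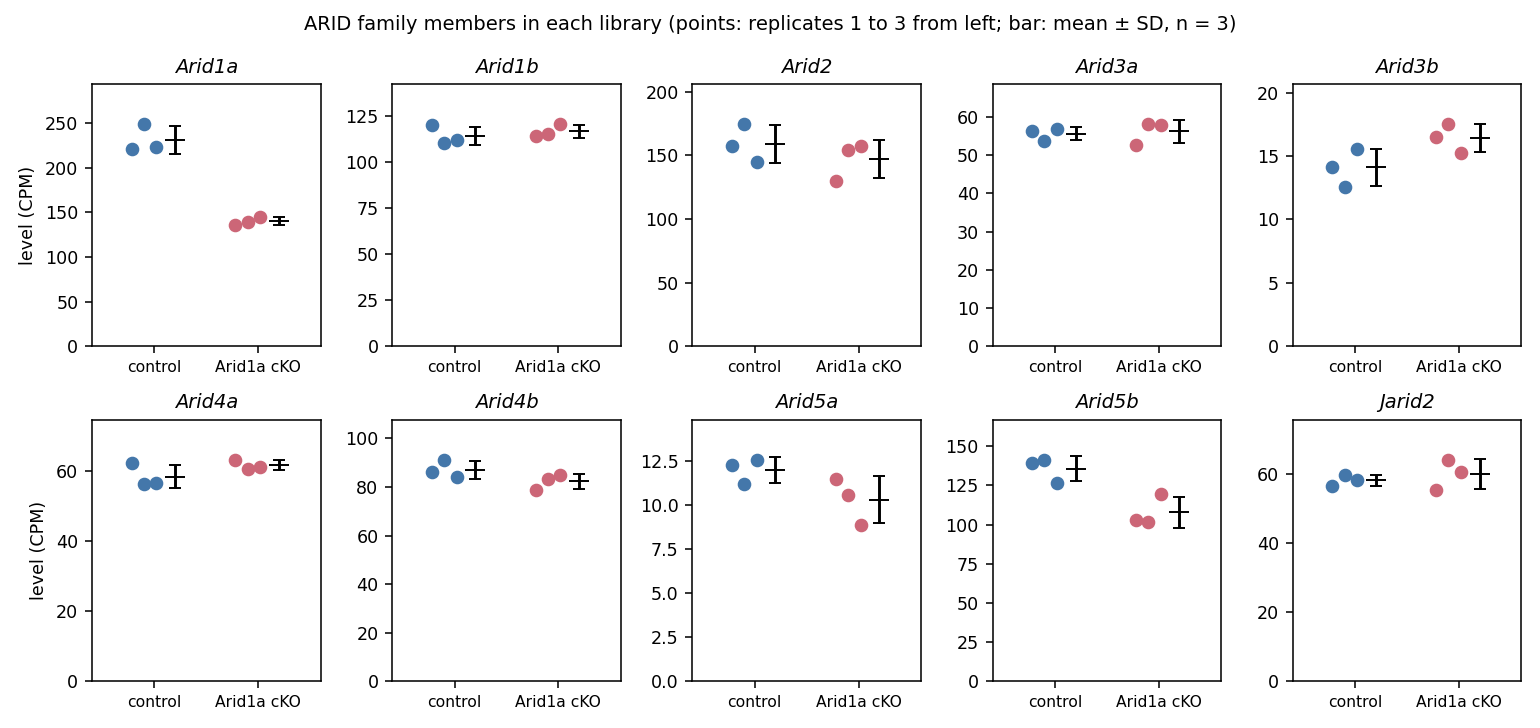
Level of each ARID member in CPM (y axis, from 0, a scale of its own in each panel) in the 3 control and 3 Arid1a cKO libraries (points, in order of replicate), with the mean ± SD beside them (n = 3). The groups do not overlap for Arid1a (222 to 249 against 136 to 145 CPM) and for Arid5b (126 to 141 against 101 to 119 CPM), and they overlap in the other 8 panels.

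The ARID subunits of SWI/SNF were read first. Arid1a (chromosome 4, 133679008 to 133756769, minus strand) stood at 222, 249 and 223 CPM in control replicates 1 to 3 and at 136, 139 and 145 CPM in Arid1a cKO replicates 1 to 3. Every Arid1a cKO library lay below every control library, and the 3 knockout values were close to each other, with a coefficient of variation of 3.26%. The log2 fold change was -0.72 (SE 0.0677, edgeR adjusted p = 0.00802), a 1.65-fold lower level with a 95% interval of 1.48 to 1.84. By p-value it ranked 13 of 19613 genes, while 620 genes had a lower log2 fold change. The count covers the whole gene, and the labels do not say which exons are floxed, so transcripts that lost them and persisted would still be counted. Gli1, the gene that names the recombinase driver, was also lower, at 137, 160.1 and 163 CPM in control and 106, 107 and 107 CPM in Arid1a cKO (log2 fold change -0.52, edgeR adjusted p = 0.0162). Its part in the Arid1a level was not tested. Gli1-CreER is present in the Arid1a cKO group alone. Effects of the driver and of Arid1a loss on other genes therefore cannot be told apart in these libraries. Leaving out each library in turn kept the Arid1a call, with an edgeR adjusted p of 0.00978 to 0.0421.

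Arid1b (chromosome 17, 4994332 to 5347656, plus strand), the paralog that can take the place of Arid1a in BAF, had nearly the same level in both genotypes. It stood at 120, 110.2 and 112 CPM in control and at 114, 115 and 120.2 CPM in Arid1a cKO. The groups overlapped throughout, and the mean was 113.9 ± 5.05 CPM in control against 116 ± 3.36 CPM in Arid1a cKO (SD, n = 3). The log2 fold change was 0.03 (SE 0.0580, edgeR adjusted p = 0.801), and its 95% interval ran from 0.931-fold to 1.12-fold. A rise of Arid1b RNA by more than 1.12-fold in the whole tissue lies outside that interval. A larger rise limited to a small share of cells could not be seen in these libraries.

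Arid2 (chromosome 15, 96287518 to 96404992, plus strand), the ARID subunit of PBAF, stood at 157, 174 and 145 CPM in control and at 130.3, 154 and 157 CPM in Arid1a cKO. The groups overlapped, and Arid2 was among the more variable members, with coefficients of variation of 9.32% and 10.1%. Its log2 fold change was -0.11 (SE 0.0967, edgeR adjusted p = 0.557, 95% interval 0.795-fold to 1.08-fold). Without 1 library it ranged from -0.16 (without control replicate 3) to -0.02 (without control replicate 2), so its size rested on single libraries.

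The ratio of Arid1a to Arid1b was lower in every Arid1a cKO library than in any control library. As Arid1b differed little, it mostly restates the fall of Arid1a. This ratio, taken from counts per kb of exon (all annotated exons of a gene merged), does not depend on library size. It was 2.03, 2.48 and 2.19 in control replicates 1 to 3 and 1.32, 1.33 and 1.33 in Arid1a cKO replicates 1 to 3. No Arid1a cKO library reached the lowest control ratio. The mean log2 ratio was 1.16 ± 0.144 in control and 0.40 ± 0.00702 in Arid1a cKO (SD, n = 3), a difference of -0.75. The exact two-sided permutation p was 0.1, the smallest that 3 against 3 can give.

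Arid1a remained the more abundant paralog in the tissue of both genotypes by this measure, and in Arid1a cKO its libraries overlapped those of Arid2. Among Arid1a, Arid1b and Arid2 per kb of exon, Arid1a made up 45.8% ± 1.16 in control and 34.8% ± 1.05 in Arid1a cKO (SD, n = 3). Arid2 made up 33.6% ± 1.27 and 38.9% ± 1.97, and Arid1b 20.6% ± 1.65 and 26.3% ± 0.92. Shares of a fixed sum move together, so a larger share of Arid1b or Arid2 is not a higher level. The summed level of these 3 genes was 43.99 ± 2.46 CPM per kb in control and 35.2 ± 1.94 CPM per kb in Arid1a cKO (SD, n = 3), which is 80.0% of control. For Arid1a and Arid1b alone the sum was 73.5% of control.

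**Figure D2:**
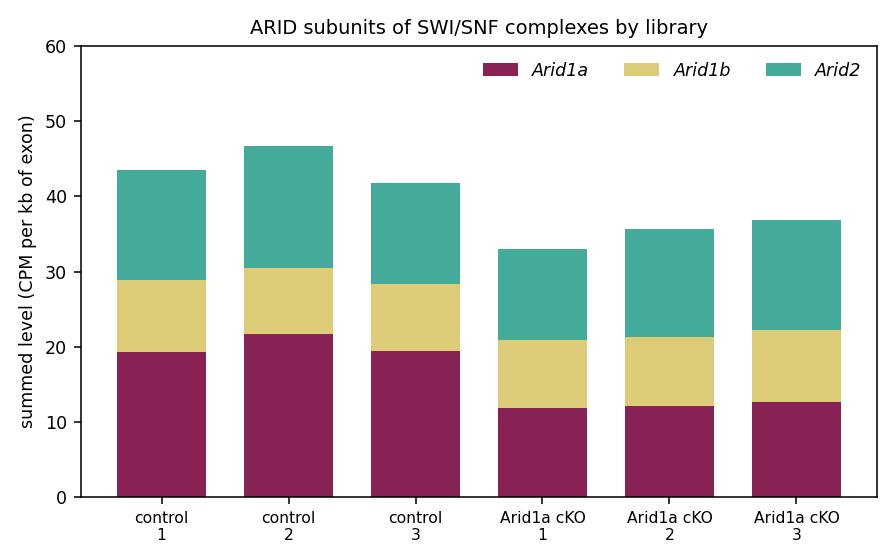
Stacked bars of the level of Arid1a, Arid1b and Arid2 in each library, in CPM per kb of merged exon (y axis, from 0). The Arid1a part is 19.3 to 21.7 in the control libraries and 11.9 to 12.7 in the Arid1a cKO libraries, while the Arid1b part is 8.75 to 9.50 and 9.04 to 9.54.

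The SIN3-HDAC members did not pass the test. Arid4a (chromosome 12, 71015990 to 71098592, plus strand), a protein that binds the retinoblastoma protein, stood at 62.1, 56.2 and 56.6 CPM in control and at 63.2, 60.6 and 61.1 CPM in Arid1a cKO. One control library lay within the Arid1a cKO range, so the groups overlapped. The log2 fold change was 0.08 (SE 0.0613, edgeR adjusted p = 0.49). Arid4b (chromosome 13, 14063232 to 14199603, plus strand), its close paralog, stood at 86.0, 91.3 and 84.1 CPM in control and at 78.7, 83.3 and 85.0 CPM in Arid1a cKO. These groups overlapped as well, and the log2 fold change was -0.08 (SE 0.0594, edgeR adjusted p = 0.456). The 95% intervals were 0.958-fold to 1.17-fold for Arid4a and 0.859-fold to 1.04-fold for Arid4b.

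Jarid2 (chromosome 13, 44729474 to 44921643, plus strand), the PRC2 partner, stood at 56.6, 59.9 and 58.3 CPM in control and at 55.5, 64.2 and 60.6 CPM in Arid1a cKO. The control range fell wholly inside the Arid1a cKO range. The log2 fold change was 0.04 (SE 0.0684, edgeR adjusted p = 0.751, 95% interval 0.924-fold to 1.15-fold).

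Arid5b (chromosome 10, 68092520 to 68278740, minus strand), a cofactor of Phf2 with known roles in fat and cartilage cells, was lower in all 3 Arid1a cKO libraries but missed the threshold. It stood at 139, 141 and 126 CPM in control and at 103, 101 and 119 CPM in Arid1a cKO. The groups did not overlap, and the gap between the lowest control and the highest Arid1a cKO library was small beside the spread within Arid1a cKO. Means were 136 ± 8.12 and 107.9 ± 9.87 CPM (SD, n = 3), and the log2 fold change was -0.33 (SE 0.0811, edgeR adjusted p = 0.0645, 95% interval 1.104-fold to 1.43-fold lower). The call depended on the test. DESeq2 gave an adjusted p of 0.0121, where 5.54% of all genes were called lower, and edgeR with a term for Y-linked expression gave 0.0431, where 4.17% were called lower and 2.32% higher. Without each library in turn the adjusted p was 0.0702 to 0.183.

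Arid5a (chromosome 1, 36307733 to 36324029, plus strand), an RNA-binding member known for stabilizing cytokine transcripts, was the lowest of the family. It stood at 12.2, 11.2 and 12.6 CPM in control and at 11.5, 10.6 and 8.84 CPM in Arid1a cKO. The groups overlapped, and Arid1a cKO replicate 3 was the lowest library. The log2 fold change was -0.22 (SE 0.121, edgeR adjusted p = 0.34), with a 95% interval of 0.708-fold to 1.05-fold. It ranged from -0.30 without Arid1a cKO replicate 1 to -0.11 without Arid1a cKO replicate 3.

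The ARID3 transcription factors did not pass either. Arid3a (chromosome 10, 79927043 to 79955018, plus strand), first known as a regulator of immunoglobulin genes in B cells, stood at 56.2, 53.6 and 56.9 CPM in control and at 52.8, 58.0 and 57.8 CPM in Arid1a cKO. The Arid1a cKO range spanned the whole control range, with a log2 fold change of 0.02 (SE 0.0625, edgeR adjusted p = 0.915, 95% interval 0.914-fold to 1.12-fold). Arid3b (chromosome 9, 57790353 to 57836793, minus strand) stood at 14.1, 12.6 and 15.6 CPM in control and at 16.5, 17.5 and 15.2 CPM in Arid1a cKO. The highest control library lay above the lowest Arid1a cKO library. Arid3b had the largest positive difference in the family, a log2 fold change of 0.22 (SE 0.105, edgeR adjusted p = 0.269, 95% interval 0.984-fold to 1.38-fold).

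**Figure D3:**
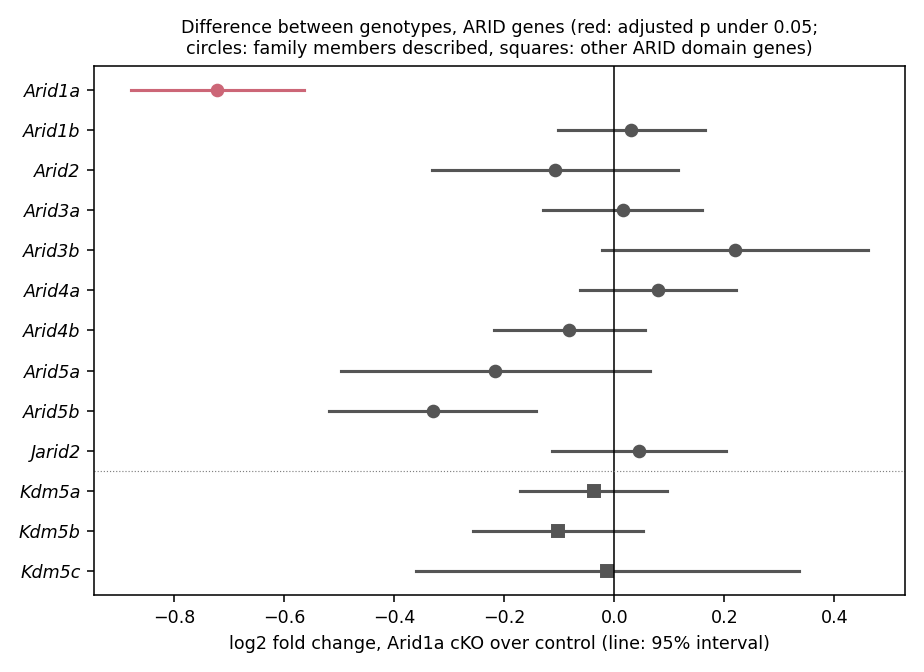
Log2 fold change of Arid1a cKO over control (x axis) with its 95% interval for the 10 members (circles) and 3 other ARID domain genes (squares), from the edgeR fit. Arid1a at -0.72 is the 1 gene past the threshold, and the intervals of Arid1a and Arid5b are the 2 that leave out 0.

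The family spanned a wide range of levels in this tissue. In control, per kb of exon, the order was Arid1a (20.2 ± 1.32 CPM per kb), Arid2 (14.8 ± 1.38), Arid5b (13.5 ± 0.807), Arid4a (10.4 ± 0.585), Arid3a (9.99 ± 0.311), Arid1b (9.04 ± 0.401), Jarid2 (6.00 ± 0.167), Arid4b (5.14 ± 0.219), Arid3b (1.77 ± 0.187) and Arid5a (0.956 ± 0.0584; SD, n = 3 throughout). Libraries of neighbours in this order overlapped for Arid2 and Arid5b and for Arid4a and Arid3a. In Arid1a cKO, Arid2 (13.7 ± 1.39 CPM per kb) and Arid1a (12.2 ± 0.398) were the highest levels and overlapped, followed by Arid4a (10.98 ± 0.241) and Arid5b (10.7 ± 0.981). Libraries of neighbours overlapped there from Arid4a through Arid5b and Arid3a to Arid1b, so this part of the order is not resolved. Per kb of the longest transcript, Arid5b (14.2 CPM per kb) stood above Arid4a (12.3) in Arid1a cKO. The place of Arid4b also depended on the length used: per kb of the longest transcript, which for Arid4b is 5864 of 16965 merged exon bases, it was the fourth highest in control, at 14.9 ± 0.633 CPM per kb. Arid1a was the highest in control with either length.

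The replicate spread differed between members. Coefficients of variation ran from 2.79% to 10.6% in control and from 2.19% to 13.1% in Arid1a cKO. Setting Arid1a aside, log2 fold changes of the other 9 members lay between -0.33 and 0.22, with 5 positive and 4 negative.

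The genes whose pattern over the 6 libraries was closest to that of Arid1a came from outside the family. Closeness was the root mean square difference of log2 CPM after centring each gene. It was ranked over 12828 genes with a mean of at least 2 CPM, with clone, predicted gene and pseudogene names left out. The 3 closest were the homeobox gene Cux2 (0.0346), the sodium-proton exchanger gene Slc9a2 (0.0537) and the septin gene Sept4 (0.0572). Cux2 stood at 9.02, 10.2 and 8.73 CPM in control and at 5.71, 5.71 and 6.07 CPM in Arid1a cKO. Slc9a2 ranged from 6.03 to 6.996 CPM in control and from 3.68 to 3.86 CPM in Arid1a cKO, and Sept4 from 34.1 to 36.3 CPM and from 22.3 to 23.0 CPM. These genes were picked for likeness, so their differences are a description. The closest family member was Arid5b, at a distance of 0.206 and rank 514, and the paralog Arid1b was at 0.385 and rank 6582.

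The ARID domain is also found in Arid3c and in the 4 histone demethylase genes Kdm5a to Kdm5d. Arid3c had 2 to 9 counts per library and was not tested. None of the 4 Kdm5 genes passed by edgeR, DESeq2 or limma-voom, and 0 had an unadjusted p under 0.05. Kdm5a had a log2 fold change of -0.04 (edgeR adjusted p = 0.751) and Kdm5b of -0.10 (0.406). Kdm5d, on the Y chromosome, stood at 45.1 to 50.2 CPM in 4 libraries and at 0.073 and 0 CPM in control replicate 3 and Arid1a cKO replicate 1. The summed level of 4 Y-linked genes, Kdm5d among them, was 0.110 CPM in control replicate 3 and 0.0510 CPM in Arid1a cKO replicate 1. It was 195 to 235 CPM in the other 4 libraries. Each genotype thus held 1 library with almost no RNA of these Y-linked genes. The Y-linked term of the alternative settings separates those libraries from the rest. Kdm5c, the X-linked counterpart of Kdm5d, is known to escape X inactivation. It was highest in those same libraries, at 154 and 145 CPM, and lay between 109.0 and 118 CPM in the other 4. Its genotype difference was -0.01 on the log2 scale (SE 0.147, edgeR adjusted p = 0.974).

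Other genes of the complexes that hold ARID members were counted against the shares over all genes given above, 1.5% called higher and 2.46% called lower by edgeR and 22% at an unadjusted p under 0.05. Of 24 other SWI/SNF subunits tested, 0 were called in either direction by edgeR, DESeq2 and limma-voom, with 2 higher and 2 lower at an unadjusted p under 0.05 and a median log2 fold change of -0.03. With lists this short, 0 or 1 call is near the background. The smallest p belonged to Bcl7a (log2 fold change 0.22, edgeR adjusted p = 0.121), Dpf3, a reader of histone marks (0.75, 0.146, at a mean of 2.36 CPM in control), and the ATPase Smarca2 (-0.18, 0.172).

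Of 17 SIN3-HDAC subunits tested, 1 was called lower and 0 higher by edgeR (median log2 fold change 0.04, 3 higher and 3 lower at an unadjusted p under 0.05, beside 22% of all genes in either direction). The called gene was the histone deacetylase Hdac1, at 36.6, 34.7 and 40.3 CPM in control and 27.7, 30.5 and 26.9 CPM in Arid1a cKO (log2 fold change -0.39, SE 0.0821, edgeR adjusted p = 0.0437). The groups did not overlap. The call was lost without each of the 6 libraries in turn, with an adjusted p of 0.0551 to 0.139, and held in 8 of 21 alternative settings. Of the 75-base windows of Hdac1 transcripts, 29.3% also occur in transcripts of other genes, mostly Gm10093, so its level is uncertain. DESeq2 called Hdac1 lower (adjusted p = 0.00429) and 2 subunits higher, Rbbp4 and Rbbp7, where 5.54% and 4.16% of all genes were called lower and higher, while limma-voom called none.

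PRC2, the complex of Jarid2, had 0 of 11 other subunits called by edgeR and by limma-voom, with 4 higher and 2 lower at an unadjusted p under 0.05, beside 22% of all genes in either direction, and a median log2 fold change of 0.06. DESeq2 called 4 of the 11 higher, against 4.16% of all genes, and 0 lower. They were Epop (log2 fold change 0.58 by edgeR, adjusted p = 0.0687 by edgeR and 0.0243 by DESeq2), the methyltransferase Ezh2 (0.29, 0.0755 and 0.0303), Rbbp4 (0.19, 0.0861 and 0.0123) and Rbbp7 (0.17, 0.119 and 0.0373). Ezh2 stood at 41.9, 47.7 and 42.0 CPM in control and at 50.8, 56.5 and 53.5 CPM in Arid1a cKO, so its groups did not overlap. Rbbp4 and Rbbp7 are histone chaperones of both PRC2 and SIN3-HDAC and count in both lists.

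Among 4 further partners of ARID members, Phf2, Rb1, E2f1 and Rest, 0 were called by edgeR, DESeq2 or limma-voom and 1 was higher at an unadjusted p under 0.05. That was the cell cycle factor E2f1, at 8.54, 7.21 and 8.36 CPM in control and 12.7, 11.4 and 9.00 CPM in Arid1a cKO (log2 fold change 0.46, SE 0.149, edgeR adjusted p = 0.124). Phf2, the partner of Arid5b, had a log2 fold change of -0.03 (edgeR adjusted p = 0.818) and Rb1, the retinoblastoma gene, of -0.07 (0.731).

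**Figure D4:**
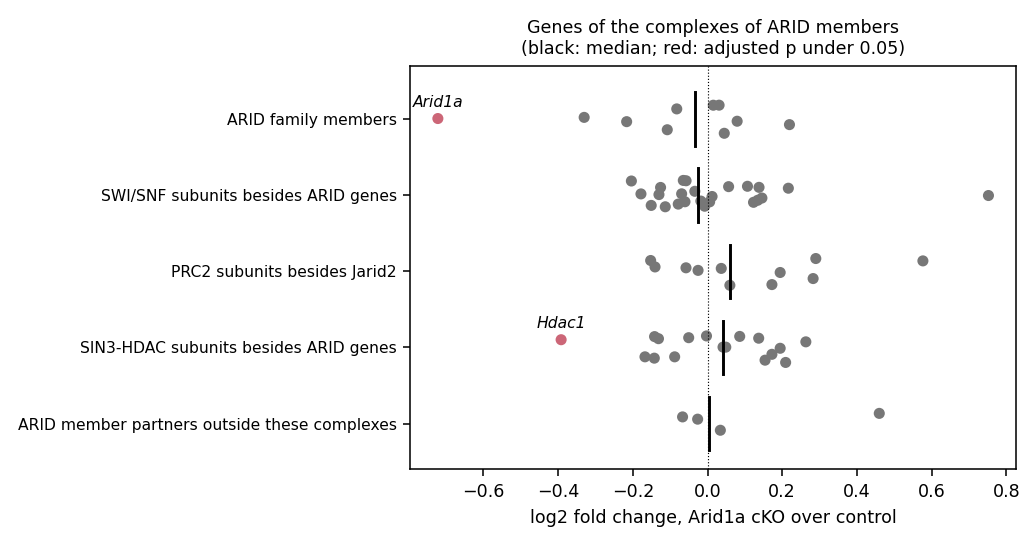
Log2 fold change of Arid1a cKO over control (x axis) for each tested gene of the ARID family and of the complexes and partners of its members (points), with the median of each list (black line). Arid1a at -0.72 and Hdac1 at -0.39 are the 2 genes past the threshold, and the list medians lie between -0.03 and 0.06.

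The Arid1a call held across the settings tried. Arid5b, not called in the main edgeR test, gained a call in some. Over 21 alternative settings the Arid1a log2 fold change lay between -0.75 and -0.65 and passed in all 21, that of Arid5b lay between -0.40 and -0.29 and passed in 2, and that of Arid1b lay between 0.02 and 0.07 and passed in 0. With 3 genes that each held over 1% of a library's counts left out, CT010467.1 among them, Arid1a was at -0.71. With the dental epithelium score as a term it was at -0.72. The part of the Schwann cell, erythroid, neutrophil and skeletal muscle markers in these results was not tested.

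**Figure D5:**
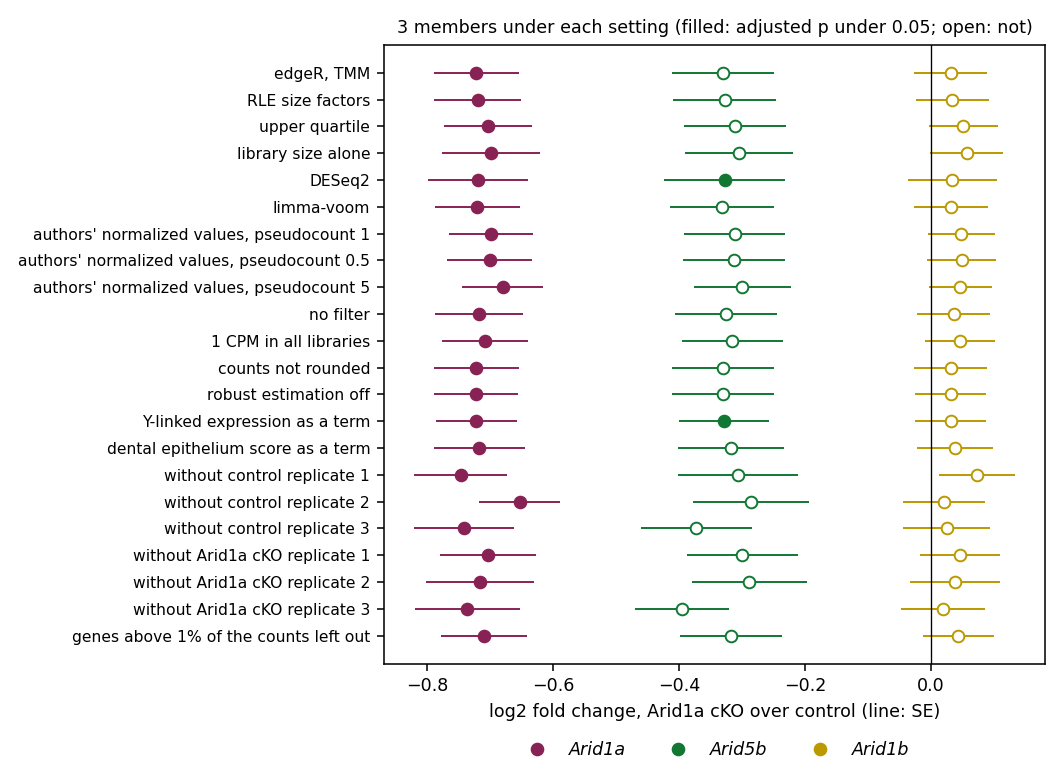
Log2 fold change (x axis) with its SE for Arid1a, Arid5b and Arid1b under the edgeR fit and 21 alternative settings (rows), filled where the adjusted p is under 0.05. Arid1a is filled in every row, Arid5b with DESeq2 and with Y-linked expression as a term, and Arid1b in none.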

How the data were processed

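Total RNA from 6 incisor samples was sequenced as single-end reads of 75 cycles. Per the submitters' processing notes, STAR 2.6.1d, Partek and mm10 were used. The authors deposited estimated counts for 25703 genes, not all whole, and a normalized signal table of 21456 genes, in which each deposited value equals the count plus 1 divided by 1 factor per library to within 0.000674%. No sample column was left unused. Counts were rounded, filtered with filterByExpr (minimum count 10), normalized by TMM (factors 0.961 to 1.04) and tested with the edgeR 4.0.16 quasi-likelihood F test (robust, two-sided, no covariates) on all genes. The SE was taken from the fold change and F. Depth ranged from 27300932 to 37908478 counts. R 4.3.3, limma 3.58.1, DESeq2 1.42.0 and Python 3.11.15 were used. The test was tried on simulated data. Gene models were those of GENCODE M21, whose starts and ends matched the deposited ones (stop minus 1) for all 10 members. Members, lists and alternatives were chosen with earlier results of these data known. The rule for named genes took all members, the other ARID domain genes, per complex the genes called or else the 3 with the smallest p, and the 3 genes most like Arid1a. Those 3 came from genes with a mean of at least 2 CPM, with clone, predicted gene and pseudogene names left out. Rbbp7 was named after its value was seen, as DESeq2 called it. Replicate numbers follow accession order. A planned comparison of the proteins was not run, and coding sequences were compared instead. One setting, leaving out genes above 1% of a library's counts, was added after seeing the data.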

Additional observations from a re-analysis of the deposited data

How the results depend on the processing

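The Arid1a difference kept its direction and its call in all 21 alternatives (other normalizations, tests, filters and covariates, and each library left out), with log2 fold changes of -0.75 to -0.65. The count of members called lower was 2 in place of 1 with DESeq2 and with Y-linked expression as a term, by the addition of Arid5b, and was 1 without each library in turn. The count called higher was 0 throughout. For the other listed genes, the count called higher was 4 with DESeq2 and 0 in the other settings. The count called lower was 0 in place of 1 with upper quartile or library size normalization, limma-voom, the authors' normalized values at each pseudocount (1, 0.5 and 5), the dental epithelium score as a term, and without each library in turn (0 to 0). Without 1 library the log2 fold change of Arid3a ranged from -0.0096 to 0.058 and that of Jarid2 from -0.0065 to 0.098, with the sign turned without Arid1a cKO replicate 2, and the cause was not tested. The Arid1a to Arid1b log2 ratio differed by -0.82 to -0.67 without 1 library, where the smallest exact permutation p is 0.2. Over all genes, 777 were called by edgeR, 1901 by DESeq2, 1272 with the Y-linked term and 160 to 532 without 1 library. No paired analysis was made because the labels give no pairing of libraries between the genotypes. Among the other members, values without 1 library ranged from -0.16 to -0.02 for Arid2, -0.30 to -0.11 for Arid5a, 0.16 to 0.30 for Arid3b, 0.06 to 0.13 for Arid4a, -0.10 to -0.03 for Arid4b and 0.02 to 0.07 for Arid1b, with 0 calls. Arid5a and Arid3b had the fewest counts among the members, at 268 to 451 and 347 to 647 per library, and Arid3c had 2 to 9. The part of depth in their spread was not tested.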
